A study of Xenopus tropicalis with 12 samples.

Results

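Clustered TR-bound regions are stretches of the genome where T3 receptor (TR) binding sites lie close together. They were found in TR ChIP-seq of Xenopus tropicalis hind limb by a rule of position. Overlapping peaks of the 12 libraries (1 bp or more in common) were merged, and a merged region was kept when at least 2 of the 3 libraries of any condition held a peak in it. Kept regions on a chromosome were chained when the gap to the next was 5000 bp or less, and the regions in chains of 4 or more are the members. Of 189159 merged regions, 22074 were kept, and 1461 of these (6.62%) were clustered, in 290 clusters. The members were thus selected on where peaks were called, so that the number, size and crowding of clusters, and the presence of their peaks in the libraries used, are given as a description.

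The study asked where TR binds in the hind limb when metamorphosis begins, and how this depends on TRα and on T3. Hind limbs came from stage 54 tadpoles, wild type or TRα (-/-), that were offspring of shared parents. Tadpoles were left without T3 or given 10 nM T3 for 18 h, which makes 4 conditions. TRα (-/-) animals carry a knockout of the TRα gene and keep the TRβ gene, and the antibody used recognises TR, so that TRβ is the TR left in their libraries. No list from a control antibody was used here. The 3 libraries of a condition are technical replicates of 1 chromatin sample pooled from at least 5 tadpoles. Every SD below thus measures technical spread, and no SD or p-value measures the spread between animals.

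TRs are nuclear receptors that sit on thyroid hormone response elements in DNA, mostly as heterodimers with retinoid X receptors. Without T3 they recruit corepressors and keep target genes low, and with T3 they recruit coactivators. TRα is the main TR of the premetamorphic limb, while TRβ is itself induced by T3. Several response elements can lie near 1 target gene, and a group of neighbouring bound stretches may hold more than 1 of them. Coordinates are those of the Xenbase v9.1 genome, as the peak lists give them. The genes, exons and motifs under the clusters were not analysed here, because no sequence or annotation of that build was used.

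Depth ran from 834029 to 6119057 fragments per library, with a median of 2069790. The lists held 4645 to 42421 peaks, and 3301 to 15730 of the 22074 kept regions had a peak in a given library. Replicate 2 of TRα (-/-) without T3 stood apart, with the fewest fragments and the fewest peaks. The wild-type libraries without T3 were the deepest, with at least 3080104 fragments each against at most 3000220 in any other library. The median pileup of a clustered region, the number of fragments stacked at the summit of its highest peak, was between 6 and 19 fragments depending on the library. At such depths a missing peak says that binding was not detectable, not that it was absent.

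Most clusters were small. Of the 290 clusters, 172 (59.3%) had 4 regions, 59 had 5, 23 had 6 and 10 had 7. The remaining 26 had 8 to 20 regions. Beside them stood 14251 solitary regions, 2401 chains of 2 and 520 chains of 3. The plot of chain sizes falls from solitary regions to chains of 7, with few chains at each larger size, and every size from 1 to 12 regions occurred.

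**Figure D1:**
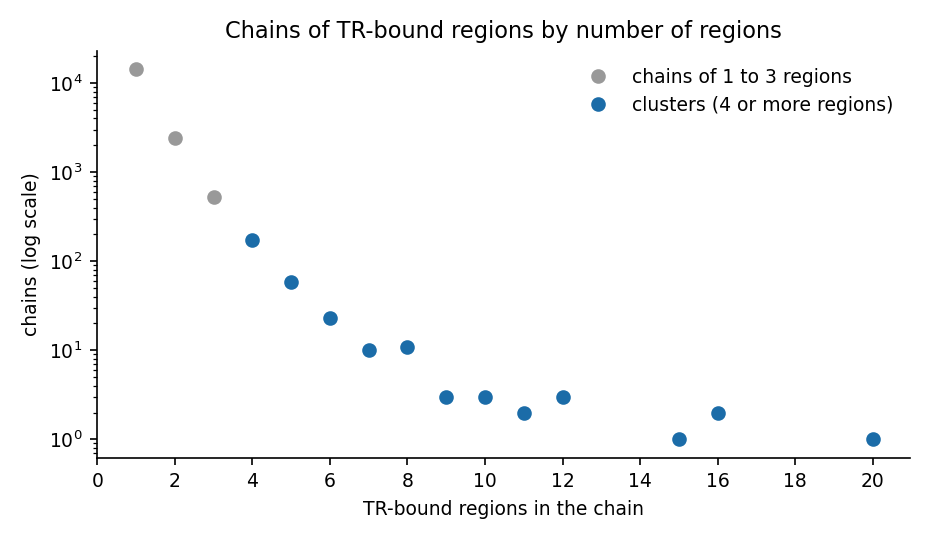
Number of chains of TR-bound regions (vertical axis, log scale) against the number of regions in the chain (horizontal axis). Grey points are chains of 1 to 3 regions, from 14251 down to 520, and blue points are the clusters, from 172 clusters of 4 regions to 1 cluster of 20.

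A cluster spanned 12057 bp at the median, from 3937 to 80095 bp, and bound regions covered a median of 33.9% of that span. Gaps between neighbours in a cluster had a median of 1698 bp, against 16751 bp between any kept region and the next. The rule sets the upper edge of these gaps: the widest gaps inside were 4997 bp on chromosome 6 and 4996 bp on chromosome 10, and the narrowest outside were 5008 bp on chromosome 10 and 5015 bp on chromosome 8. The last of these parted a cluster of 8 regions from one of 5. Gaps shorter than 500 bp made up 16.6% of those in clusters, which is less than the median width of a clustered region (845 bp).

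Clusters lay near the ends of chromosomes more often than bound regions in general. Within 5 Mb of an end lay 169 of the 290 clusters, and 54.0% of the clustered regions against 31.3% of all kept regions. Within 1 Mb the shares were 23.1% and 7.92%, and 19.3% of the kept regions there were clustered. A chromosome's far end was taken as the end of its last peak. Since kept regions are themselves denser there, a rule of fixed gaps finds more chains, and the crowding and the location cannot be told apart.

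Few of the largest clusters lay there. Of the 12 clusters with 10 or more regions only 2 lay within 5 Mb of an end, and of the 26 with 8 or more only 7 did. The chromosomes also differed. On chromosome 1 only 3.40% of the kept regions were clustered, against 5.80% to 8.23% on each of the other 9. Clusters per 10 Mb ran from 1.08 on chromosome 1 to 5.76 on chromosome 10, which also had the most kept regions per 10 Mb.

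Clusters stood near other clusters too. Another cluster lay within 100 kb for 117 of them (40.3%) and within 20 kb for 39 (13.4%). These 39 formed 17 runs, 14 of 2 clusters, 1 of 3 and 2 of 4. One run of 4 clusters covers chr2:102068376-102162914 with 29 regions, and the other covers chr4:36853681-36998463 with 28 regions.

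The cluster with the most regions was chr7:68327984-68408078, with 20 regions that covered 74.3% of 80095 bp. Peaks were found in 17, 16 and 16 of its regions in the wild-type libraries without T3 (replicates 1 to 3) and in 17, 14 and 16 with T3. In the TRα (-/-) libraries they were found in 15, 3 and 17 regions without T3 and in 10, 17 and 16 with T3. Replicate 2 of TRα (-/-) without T3 was thus low, and the others overlapped between conditions. By the call of 2 of 3 libraries, 16, 17, 14 and 15 of the 20 regions were bound in wild type without and with T3 and in TRα (-/-) without and with T3.

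Next came chr6:29646737-29710566 and chr9:45591225-45627909, each with 16 regions. All 16 regions of the chromosome 6 cluster were bound in wild type without T3, against 15 with T3, and in TRα (-/-) 12 and 13 were bound. In the chromosome 9 cluster the counts were 16, 11, 12 and 12 in that order. In it 11 regions had a peak in at least 11 libraries, and the 5 that were not bound in wild type with T3 had a peak in 3 to 6 libraries.

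The cluster chr10:18549067-18597185, with 15 regions, varied most among the 6 largest. Without T3 it had 12 bound regions in wild type and 4 in TRα (-/-), and with T3 it had 8 and 9. The clusters chr4:36942340-36998463 and chr3:88107580-88141427 had 12 regions each. In wild type without T3, 11 and 12 of these were bound, in wild type with T3 9 and 11, in TRα (-/-) without T3 6 and 6, and in TRα (-/-) with T3 6 and 9. A cluster on chromosome 5, chr5:44086992-44117546, also had 12 regions and was placed after these by its shorter span of 30555 bp. Of its regions 10, 6, 4 and 6 were bound in the same order of conditions. In each of the 6 clusters taken as the largest, some regions held peaks in at least 10 of the 12 libraries while others beside them held peaks in 6 or fewer.

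**Figure D2:**
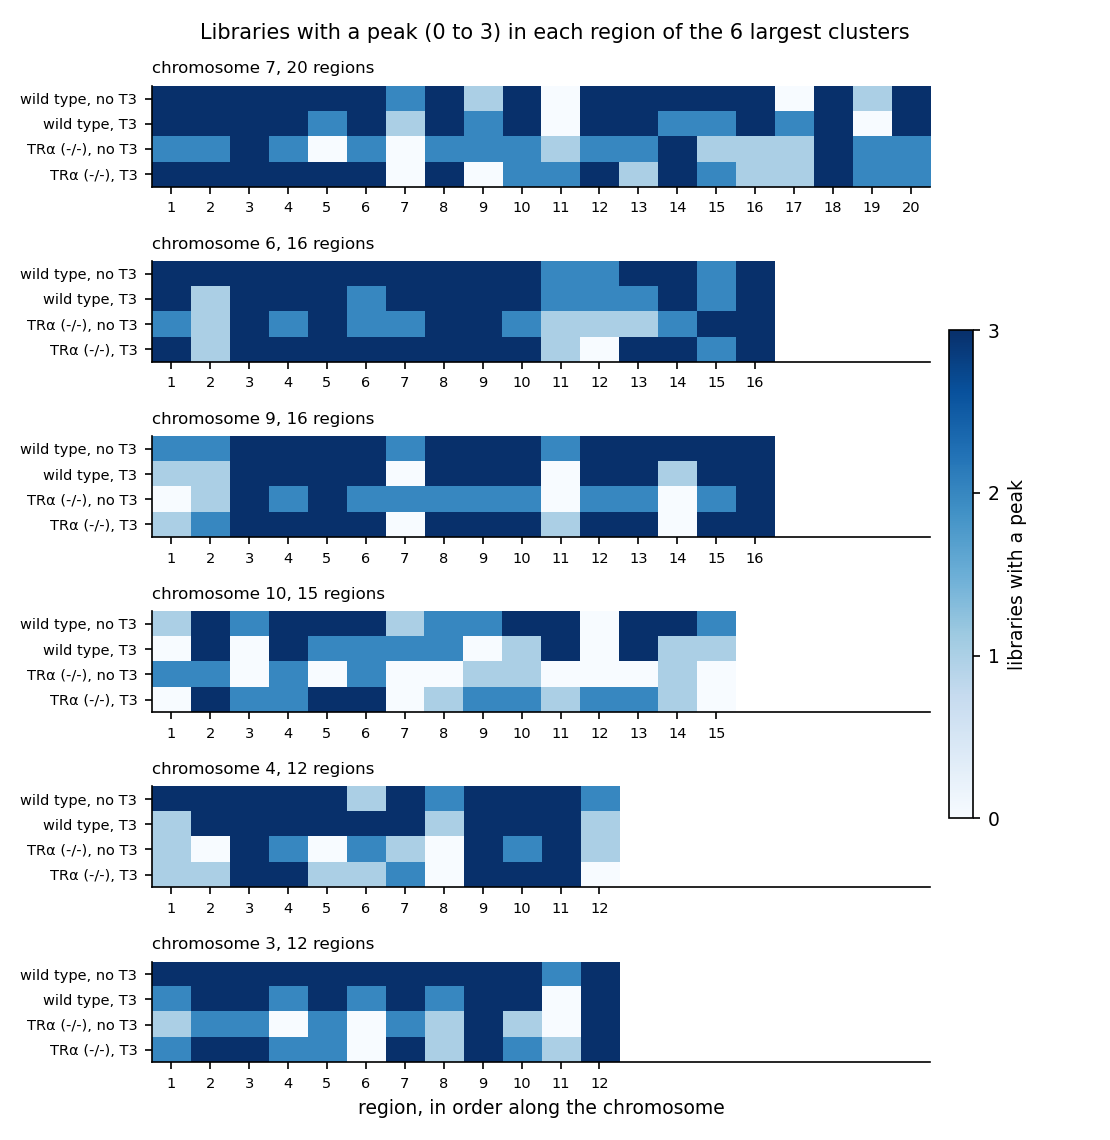
Number of libraries (0 to 3, colour scale) with a peak in each region (horizontal axis, in order along the chromosome) of the 6 largest clusters, for the 4 conditions (rows). Dark columns run through all 4 conditions beside pale ones in the same cluster, such as the 15-region cluster with 12 bound regions in wild type without T3 and 4 in TRα (-/-) without T3.

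Regions in clusters had stronger peaks than other kept regions by pileup. Scaled to 1000000 fragments of its library (called the scaled pileup from here on), the median pileup of clustered regions was 1.33 to 1.75 times that of the others, and higher in 12 of 12 libraries. The percentile of the q value within its own list was higher in 11 of 12, replicate 2 of TRα (-/-) without T3 being the exception (60.1 against 62.0). Fold enrichment over the local background went the other way and was lower in 10 of 12 libraries. MACS2 took that background from the same library within 10000 bp of the peak, a window that holds the neighbouring peaks of a cluster, and its part in the lower fold was not tested.

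The scaled pileup grew with the size of the chain, most in clusters of 8 or more regions. Solitary regions had a median scaled pileup of 3.13, regions in clusters of 4 had 4.33, and regions in clusters of 8 or more had 8.19. It was 7.18 without the chromosome 2 run described below. The median percentile of the q value was 73.0 in solitary regions, 71.8 in chains of 2 and 74.1 in chains of 3. That percentile was 75.5 to 76.5 in clusters of 4 to 7 regions and 85.0 in those of 8 or more. Median width was 729 bp in solitary regions, 749 to 795 bp in chains of 2 to 5, 890.5 bp in clusters of 6 or 7 and 1256.5 bp in those of 8 or more. Median fold enrichment was 5.37 in solitary regions, 5.23 to 5.29 in chains of 2 to 5, 4.89 in clusters of 6 or 7 and 4.55 in those of 8 or more. Regions at the edge of a cluster had a peak in 61.1% of region and library pairs, and inner ones in 60.2%. Within a cluster 1 region often led: in 32 of the 290 clusters a single region had the highest pileup in all 12 libraries, and in 135 a single region led in at least 8.

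In 6 clusters, chosen after their values were seen, every region was bound in all 4 conditions. They were chr2:102095284-102102443, chr3:5368138-5384864, chr4:49118260-49137966, chr5:36066401-36100725, chr7:35519824-35536645 and chr7:97085025-97107990, with 4, 4, 4, 9, 5 and 7 regions. The cluster on chromosome 4 had the best mean percentile of q values of all (96.9), and all of its 4 regions had a peak in all 12 libraries. Its strongest region, chr4:49135750-49137966, had pileups of 246, 369 and 532 fragments in wild type without T3 and 88, 170 and 199 with T3, and 109, 66 and 267 in TRα (-/-) without T3 and 70, 170 and 265 with T3. These pileups follow the depth of the libraries and were not scaled.

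Whether clustering goes with detection was examined in libraries that had no part in choosing the clusters. Regions were chained from the 6 wild-type libraries alone, which gave 230 clusters of 1169 regions, and looked up in the 6 TRα (-/-) libraries. There 51.8%, 20.8% and 65.0% of the clustered regions had a peak without T3 (replicates 1 to 3), against 38.0%, 15.6% and 51.4% of the solitary ones. With T3 the values were 48.2%, 61.0% and 70.6% against 42.4%, 52.5% and 59.0%. Clustered regions were higher in 6 of 6 libraries, by 9.76 percentage points on average (exact sign-flip permutation test over 6 libraries, two-sided p = 0.031, the smallest that 6 allow). The 6 libraries are technical replicates of 1 chromatin sample with T3 and 1 without, and all were scored on the same regions. They are thus not 6 independent units, and the p-value describes these libraries only.

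The reverse gave the same direction. Chains from the 6 TRα (-/-) libraries gave 103 clusters of 538 regions, and in the wild-type libraries 67.7% to 89.8% of these had a peak against 52.2% to 74.98% of solitary regions. The mean difference was 14.3 points, higher in 6 of 6 libraries (exact sign-flip permutation test, p = 0.031, with the same limit on the libraries). With fold enrichment of at least 4 required of every peak it was 4.61 points (p = 0.09375 in that exact test). Clustered regions were also the stronger ones in the libraries that defined them, with a median best percentile of 87.4 against 82.9 in the first case. Among regions of like strength, in 4 classes of about equal number, the difference in TRα (-/-) libraries was 3.93 to 7.71 points and positive in 4 to 6 of 6 libraries. In wild-type libraries it was 3.54 to 19.97 points and positive in 6 of 6 in each class. Any overlapping peak counted as detection. Clustered regions were also wider when chained from all 12 libraries, with a median of 845 bp against 729 bp in solitary regions. The part of width was not tested.

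In wild type without T3, 73.4%, 74.5% and 83.0% of the 1461 regions had a peak in replicates 1 to 3, and with T3 55.2%, 63.2% and 69.5%. In TRα (-/-) the values were 50.3%, 19.2% and 63.5% without T3 and 47.8%, 59.3% and 67.6% with T3. The wild-type libraries without T3 were all above the other 9, and these 9 overlapped. Those wild-type libraries were also the deepest, and the part of depth in this order was not tested. Among the other kept regions the wild-type groups overlapped, since replicate 3 with T3 (64.1%) was above replicates 1 and 2 without T3 (63.1% and 63.9%). By the call of 2 of 3 libraries, 1204 clustered regions (82.4%) were bound in wild type without T3 and 953 (65.2%) with T3, and in TRα (-/-) 663 (45.4%) without T3 and 872 (59.7%) with T3. Of all kept regions 71.8%, 61.3%, 33.9% and 56.0% were bound, so clustered regions were above the general level in each condition.

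The share of clustered regions among the bound regions with a peak in a library gives the same data relative to the other regions. It was 7.61%, 7.63% and 7.71% in wild type without T3 and 7.33%, 7.32% and 7.14% with T3. In TRα (-/-) it was 8.59%, 8.51% and 8.13% without T3 and 7.07%, 7.20% and 7.32% with T3. The TRα (-/-) libraries without T3 were highest, the wild-type libraries without T3 came next, and the T3-treated libraries of both genotypes overlapped.

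**Figure D3:**
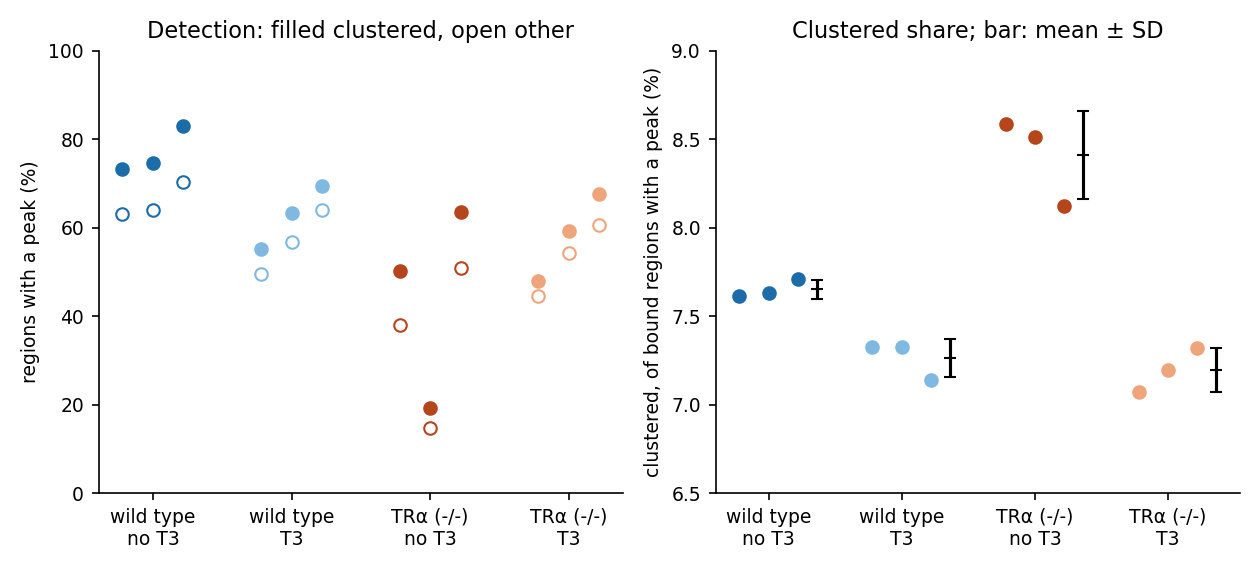
Left, percent of clustered (filled) and other (open) bound regions with a peak in each of the 12 libraries. Right, clustered regions as a percent of the bound regions with a peak in each library, with the mean and SD of the 3 technical replicates as bars (the axis starts at 6.5%): the 3 libraries of TRα (-/-) without T3, at 8.13% to 8.59%, are above the others.

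With T3 the share fell by 0.801 percentage points when averaged over the genotypes. All 6 libraries with T3 were below all libraries without T3 of their genotype, and the mean fell by 0.387 points in wild type and fell by 1.21 points in TRα (-/-). The share is made from the peak calls that chose the members, so these differences are given as a description, with no test. They depended on the peak set. With the 4645 best peaks taken from every list the T3 difference was 0.219 points in the other direction, and with peaks of q below 0.001 it was −0.0940.

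Without T3 wild type minus TRα (-/-) was −0.757 points, with T3 it was 0.0698 points, and averaged over treatments it was −0.344 points. The number of kept regions with a peak had a mean of 14694 ± 902 (SD, n = 3) and 12619 ± 1610 in wild type without and with T3, and 7760 ± 4118 and 11803 ± 1810 in TRα (-/-). With T3 the mean of this number was thus lower in wild type and higher in TRα (-/-), while the clustered share was lower in both. The libraries overlapped in this number. Wild-type replicate 3 with T3 (14231) was above replicate 1 without T3 (14082). In TRα (-/-), replicate 3 without T3 (11421) was above replicate 1 with T3 (9888), and replicate 2 without T3 had 3301. The number also follows depth, and the part of depth was not tested.

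The next question was whether T3 or the loss of TRα acted on whole clusters or on single regions. In wild type, 386 clustered regions (26.4%) were bound only without T3, against 26.1% of all kept regions, and 135 (9.24%) only with T3, against 15.6%. For T3 in TRα (-/-), 129 (8.83%) were bound only without T3, against 7.31% of all, and 338 (23.1%) only with T3, against 29.4%. As shares of all regions, the members were thus close to the general level for regions bound only without T3, and below it for regions bound only with T3. Of regions bound without T3, 32.1% of the clustered and 36.4% of all were not bound with T3 in wild type, and 19.5% and 21.5% in TRα (-/-). Of regions bound with T3, 14.2% and 25.4% were not bound without T3 in wild type, and 38.8% and 52.5% in TRα (-/-).

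Between genotypes without T3, 607 clustered regions (41.5%) were bound only in wild type, against 42.3% of all kept regions, and 66 (4.52%) only in TRα (-/-), against 4.42%. With T3, 282 (19.3%) were bound only in wild type, against 23.2% of all, and 201 (13.8%) only in TRα (-/-), against 17.9%. These comparisons share control libraries in pairs, and the call of binding is also what the rule used, so the shares describe the members and no test was made of them. Of regions bound in wild type without T3, 50.4% of the clustered and 58.9% of all were not bound in TRα (-/-) without T3.

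By the call of binding, few clusters changed in all their regions, while many changed in several regions one way. Between wild-type libraries without and with T3, no cluster had all its regions change in one direction, 83 had 2 or more regions changed one way only, 91 had a single changed region, 74 had changes in both directions and 42 had none. For T3 in TRα (-/-) these counts were 0, 71, 94, 77 and 48. Between genotypes with T3 they were 0, 50, 102, 98 and 40. Between genotypes without T3, 158 clusters had 2 or more regions changed one way only, and in 128 of all clusters at least 50% of the regions did so. Another 64 clusters had a single changed region, 54 had changes in both directions and 14 had none. All changes were towards binding in wild type alone in 216 clusters and towards binding in TRα (-/-) alone in 6. In this comparison 42.3% of all kept regions were bound only in wild type and 4.42% only in TRα (-/-). How many clusters would show several one-way changes at the rates of all kept regions was not worked out. The counts of clusters are thus not read as regions changing together. Calls in TRα (-/-) without T3 rested mostly on replicates 1 and 3, since replicate 2 had a peak in only 281 of the 1461 clustered regions.

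That last comparison held the only clusters that changed whole, 3 of 290, each with all 4 regions bound in wild type and none in TRα (-/-) without T3. They are chr1:192807169-192822158, chr9:10982258-10994366 and chr9:67958295-67966796. In the first the wild-type pileups without T3 were at most 19 fragments and in the second at most 11. The count depends on single libraries: without replicate 1 or replicate 3 of TRα (-/-) without T3, when both that remained had to hold a peak, it was 50 and 60 clusters, and without wild-type replicate 1 or 2 it was 0.

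The third cluster had strong peaks. Its first region, chr9:67958295-67958639, had pileups of 54, 65 and 73 fragments in wild type without T3 and 25, 39 and 50 with T3. The TRα (-/-) libraries had no peak there without T3, and 19, 46 and 47 fragments with T3. Its region chr9:67963385-67963790 had 53, 63 and 64 fragments in wild type without T3 and no peak in TRα (-/-) without T3, and with T3 28 and 43 fragments in wild-type replicates 1 and 3 and 39 and 48 in TRα (-/-) replicates 2 and 3. These pileups were not scaled and follow the depth of the libraries. The highest scaled pileup of the cluster was 17.5, 15.5 and 11.9 in wild type without T3 and 26.5, 21.4 and 21.7 with T3. Scaled pileups in wild type were higher with T3 in general, by a median of 0.52 on the log2 scale over 5136 regions. At this cluster 3 of 4 regions were bound in both genotypes with T3.

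Emptying and filling were less rare than a change of all regions, since a cluster with few bound regions can lose them all. Between TRα (-/-) libraries, 24 clusters with no bound region without T3 had at least 1 with T3, and 5 had the opposite. Without T3, 24 clusters had no bound region in TRα (-/-) and at least 1 in wild type, and 1 had the opposite. In wild type, 2 clusters with a bound region without T3 had none with T3, and 1 had the opposite. Such rates in chains of other sizes were not worked out. Both counts of 24 rest on the calls in TRα (-/-) without T3, where replicate 2 had few peaks.

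The clusters with the largest share of regions changed in one direction were as follows. In wild type, chr10:15029460-15037665 and chr9:77698754-77711523 each had 4 of 5 regions bound only without T3, while chr7:841770-854113 had 3 of 4 and chr7:356271-376802 had 4 of 8 bound only with T3. The chromosome 10 cluster rested on replicates 2 and 3, where 4 and 5 of its regions had a peak, with none in replicate 1. In TRα (-/-), chr4:6349575-6359750 had 3 of 4 regions and chr2:166301911-166314949 had 2 of 4 bound only without T3, and chr7:4380988-4392938 had 4 of 5 bound only with T3.

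Between genotypes without T3, chr8:5409962-5421211 and chr6:133151256-133161281 each had 2 of 4 regions bound only in TRα (-/-). With T3, chr3:126737328-126749706 had 3 of 4 regions and chr5:2870469-2880661 had 3 of 5 bound only in TRα (-/-), while chr4:8571457-8581924 and chr8:108171391-108182348 each had 3 of 4 bound only in wild type. Such clusters could be weak: at chr4:6349575-6359750 the highest pileup was 5 and 21 fragments in replicates 1 and 3 of TRα (-/-) without T3, with no peak in replicate 2.

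Whether neighbours in a cluster changed alike more often than their base rate differed between the 8 classes of change. A region next to one bound only without T3 in wild type was itself so in 31.3% of cases, against a base of 26.2% among clustered neighbours, and for neighbours over 5000 bp apart the values were 25.3% and 25.7%. For regions bound only with T3 in wild type they were 15.4% against 9.44% in clusters, and 19.0% against 16.6% apart. For regions bound only in wild type without T3, against TRα (-/-), the value was 41.6% against a base of 41.5%, and for regions bound only with T3 in TRα (-/-) it was 21.2% against 23.0%. For those bound only without T3 in TRα (-/-) it was 7.88% against 8.67%, and for those bound only in TRα (-/-) without T3, against wild type, 5.50% against 4.65%. With T3 it was 19.7% against 19.5% for regions bound only in wild type and 9.97% against 13.7% for those bound only in TRα (-/-). The share with the same change was thus above the base by more than 1 point in the 2 wild-type T3 classes alone, below it by more than 1 point in 2, and within 1 point of it in 4. In the 2 wild-type T3 classes the opposite change was also above its base, at 11.1% against 9.44% and 30.8% against 26.2%. It was above its base for T3 in TRα (-/-) and for the genotypes with T3 as well, and below it for the genotypes without T3.

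Pileup gave another view, since it grades binding where a peak is present in all libraries. For each comparison, regions with a peak in all 6 libraries were taken, and the difference of the mean log2 scaled pileups was set against the median difference of all such regions. That median was 0.52 on the log2 scale for T3 in wild type, 0.32 for T3 in TRα (-/-), −0.33 for wild type against TRα (-/-) without T3 and −0.12 with T3. Clustered regions had medians of 0.54, 0.46, −0.22 and −0.07. They numbered 493, 173, 199 and 361 of 5136, 1913, 2204 and 3868 regions. The part of depth in these differences was not tested.

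How alike these differences were within a cluster varied with the comparison. The share of their variance that lay between clusters rather than within them was 0.283 for T3 in wild type (389 regions in 120 clusters), 0.650 for T3 in TRα (-/-) (104 in 38), 0.793 for the genotypes without T3 (116 in 43) and 0.359 with T3 (248 in 75). Pearson's r between neighbours was 0.83 in clusters without T3 (37 pairs) and 0.21 between neighbours 5 to 20 kb apart (153 pairs) in that genotype comparison. For T3 in wild type the values were 0.26 (177 pairs) and −0.02 (625 pairs), for T3 in TRα (-/-) 0.72 (31 pairs) and 0.10 (125 pairs), and for the genotypes with T3 0.56 (114 pairs) and −0.03 (390 pairs). The regions of a pair share their libraries, and close regions can share fragments, so these are descriptions of the 12 libraries.

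Much of the likeness came from the run of 4 clusters at chr2:102068376-102162914. Without it the share between clusters was 0.213 for T3 in TRα (-/-), 0.394 for the genotypes without T3 and 0.182 with T3, and it was 0.287 for T3 in wild type. Pearson's r between neighbours in clusters was then 0.41 for the genotypes without T3 (32 pairs), 0.11 for T3 in TRα (-/-) (26 pairs), 0.31 for the genotypes with T3 (93 pairs) and 0.28 for T3 in wild type (154 pairs). For T3 in TRα (-/-) this was close to the 0.10 of neighbours 5 to 20 kb apart. The run stood out by its strength as well. Its 29 regions supplied 23 of the 50 kept regions with the highest mean scaled pileup, and its clusters had mean percentiles of 91.9 to 96.5. Its last 3 clusters, chr2:102095284-102102443, chr2:102114157-102128854 and chr2:102146698-102162914, were with the chromosome 4 cluster above the 4 with the best mean percentile.

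Across the 13 regions of the run with a peak in all 12 libraries, the median scaled pileup was 140, 118 and 102 in wild type without T3 and 187, 185 and 184 with T3. In TRα (-/-) it was 45.1, 30.0 and 45.0 without T3 and 138, 121 and 140 with T3. The 3 libraries of TRα (-/-) without T3 were thus far below the other 9. In the other clusters the same measure, over 142 regions, was 10.3, 10.2 and 11.3 in TRα (-/-) without T3, against 8.01 to 9.90 in wild type without T3. There the TRα (-/-) libraries were the higher ones. This was the general level: for kept regions outside clusters the library medians averaged 8.29 in TRα (-/-) and 6.73 in wild type without T3. All of these regions had to hold a peak in all 12 libraries, including the shallow replicate 2 of TRα (-/-) without T3.

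All 13 regions of the run measured in TRα (-/-) without T3 moved the same way. In wild type the scaled pileup was a median of 3.08-fold that in TRα (-/-) without T3, and 3.87-fold after the general shift was taken out. Before the shift was taken out, the log2 difference was 1.12 to 1.96 across these regions. With T3, TRα (-/-) was at a median of 3.58-fold its level without T3 (2.86-fold after the shift). The log2 differences there were 0.90 to 1.99 before the shift. With T3 the wild type stood 1.34-fold above TRα (-/-) at the median of 26 regions (1.46-fold after the shift). In wild type the level with T3 was 1.59-fold that without T3 at the median of 28 regions, and 1.11-fold after the shift. Whether the general shift applies to regions as strong as these was not tested. The scaled pileup could also go with depth. In wild type without T3 it was 140, 118 and 102 in the run, at 3080104, 4188012 and 6119057 fragments. In TRα (-/-) it did not fall steadily as depth rose. The part of depth in these folds was not tested. At the chromosome 4 cluster with all peaks present, the median log2 difference before the shift was −0.014 for T3 in wild type and 0.206 in TRα (-/-). For the genotypes it was 0.005 without T3 and −0.242 with T3. The general shifts were 0.52, 0.32, −0.33 and −0.12 in that order. The run was singled out after its values were seen, and no test was made of it.

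**Figure D4:**
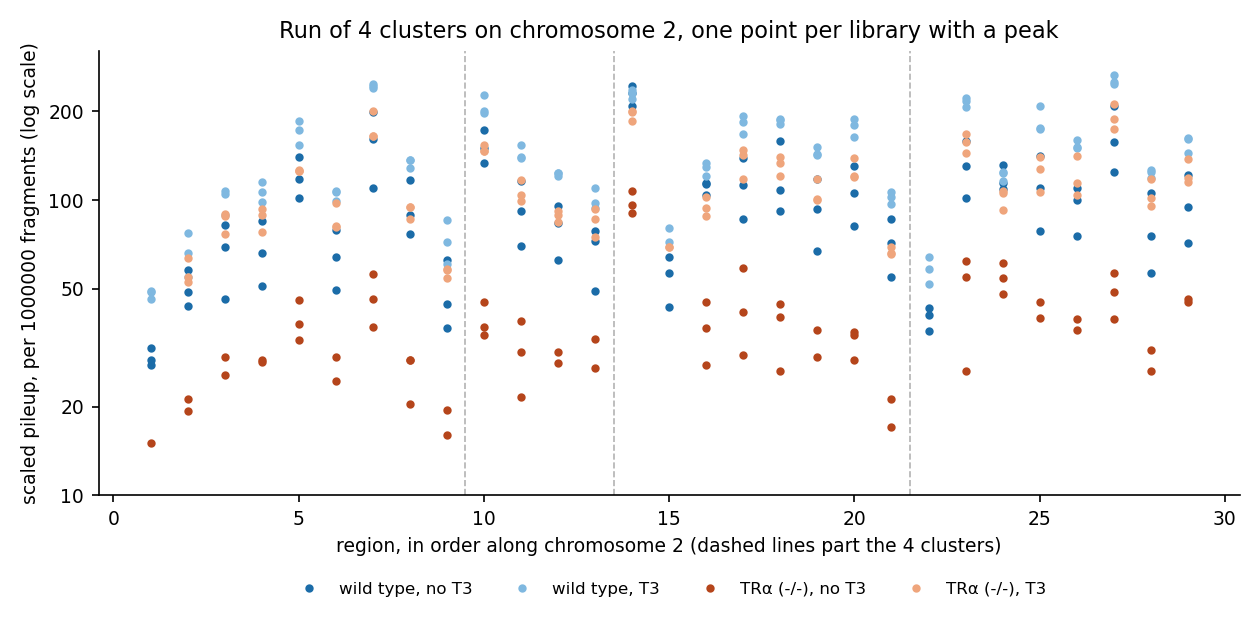
Scaled pileup, per 1000000 fragments (vertical axis, log scale), in each of the 29 regions of the chromosome 2 run (horizontal axis, in order), with 1 point for each library that had a peak. The points of TRα (-/-) without T3 lie below those of the other conditions across all 4 clusters, with medians of 45.1, 30.0 and 45.0 against 102 or more over the 13 regions with a peak in all 12 libraries.

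The call of binding did not show this change, since most regions of the run kept peaks in TRα (-/-) without T3. In its second cluster, chr2:102095284-102102443, all 4 regions were bound in each condition. The strongest of these, chr2:102095284-102097831, had pileups of 530, 627 and 819 fragments in wild type without T3. Those in TRα (-/-) without T3 were 72, 31 and 105. The scaled pileups there were 172, 150 and 134 against 45.1, 37.2 and 35.0. The first region of its last cluster, chr2:102146698-102147215, had pileups of 133, 171 and 221 fragments in wild type without T3 and 55, 107 and 148 with T3, and no peak in any TRα (-/-) library. The pileups given in fragments were not scaled. The scaled pileup of chr2:102146698-102147215 in wild type was 43.2, 40.8 and 36.1 without T3 and 52.1, 58.6 and 64.1 with T3. These values still hold the general shift for T3 in wild type, 0.52 on the log2 scale towards higher values with T3. What lies under the run in the genome, and whether it is a repeated sequence, was not analysed here.

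Other clusters moved less, and some in the other direction. At the 16-region cluster on chromosome 9, the 3 measured regions were 0.85 to 0.93 higher on the log2 scale in wild type than in TRα (-/-) without T3, relative to the general shift, and with T3 all 11 measured regions were higher, by 0.18 to 0.49. At the 20-region cluster on chromosome 7, the 3 measured regions differed by −0.56 to −0.17 in that comparison. At the chromosome 4 cluster with all peaks present, the differences were −0.32 to 0.49 and lay on both sides. The counts that follow take in the clusters of the run as well. In the comparison of genotypes without T3, 19 clusters had at least 3 measured regions. Of these clusters, 7 had all such regions above the general shift, 3 had all below and 9 had both. For T3 in wild type the counts were 7, 7 and 44 of 58, for T3 in TRα (-/-) 10, 1 and 6 of 17, and for the genotypes with T3 9, 6 and 20 of 35. The measured regions of the run were all above the shift for the genotypes without T3, by at least 1.45. For T3 in TRα (-/-) and for the genotypes with T3 they were above it by at least 0.58 and 0.32. The clusters of the run thus add to the counts above the shift in these comparisons.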

How the data were processed

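Libraries were grouped by genotype and treatment from the sample labels. The authors aligned reads to the v9.1 genome with Bowtie2 2.3.4.1 and called peaks in each library with MACS2 2.1.1.20160309 without a control, keeping those under a q value of 0.05. The deposited lists give each peak a position and a pileup, which is an unscaled signal counted in fragments. The authors' caller also wrote −log10 p-values and −log10 q-values, and a fold enrichment (ratio of pileup to local background). The authors' file headers give the fragments after filtering, used here as depth.

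Peaks were merged, kept and chained as the rule states with Python 3.11.15 (numpy 2.4.6, pandas 2.3.3, matplotlib 3.10.9), and the steps were tested on simulated data. Where a region held several peaks of a library the highest was taken. Detection in libraries not used to choose the clusters was compared by exact two-sided sign-flip permutation. Exact permutation tests of the clustered share, 7 with Benjamini-Hochberg adjustment, were also run, but the share uses the peak calls of the rule and is described without them. Clusters named are the 6 with most regions (ties by span), the 4 with the best mean percentile, the 2 with the largest changed share per comparison and direction, and others where said. Members, lists and tests were chosen with earlier results of these data known, and the comparison of pileups after the data were seen. Alternatives changed gap, cluster size, peak threshold, merging, required libraries and number of peaks. Genes were not assigned.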

Additional observations from a re-analysis of the deposited data

Results flagged for a closer look

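The fall of the clustered share with T3 was 0.827 percentage points smaller in wild type than in TRα (-/-). With T3 the share fell by 0.387 points in wild type and fell by 1.21 in TRα (-/-). The share is made from the peak calls that chose the members, and the value is given as a description. An exact permutation test of this difference was also run, but it rests on the same peak calls and no conclusion is drawn from it. With the same number of peaks taken from every library the difference was 0.0141 points.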

How the results depend on the processing

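Of 380 alternative values, 17 changed sign, and 74 counts or shares of variance moved away from the main value. The others kept their direction or stayed near the main value. Crossings of a threshold on p are not counted here, because the tests of the clustered share use the peak calls of the rule. The causes were not tested. Differences in the clustered share are in percentage points and are descriptions, since the rule used the peak calls. The number of clusters (and of clustered regions) was 120 (607) with a gap of 3000 bp, 855 (4801) with 10000 bp, 810 (3021) with at least 3 regions, 118 (773) with at least 5, 119 (617) at q below 0.001, 124 (596) with fold enrichment of at least 4, 146 (704) when peaks had to cover 50% of a region, 75 (408) with all 3 libraries required, 22 (123) with 4645 peaks from every library and 158 (828) without replicate 2. With 1 library left out they ranged from 222 to 284 and from 1131 to 1436.

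For T3 within genotype the share differed by −0.480 at q below 0.01, −0.0940 at q below 0.001, −0.196 with fold enrichment of at least 4, −0.310 with 50% covered, −0.199 with all 3 libraries required, 0.219 with equal peaks and −0.449 without replicate 2. For T3 in wild type it changed sign to 0.0338, 0.251, 0.148, 0.195 and 0.226 at q below 0.01, q below 0.001, fold enrichment of at least 4, all 3 libraries and equal peaks, and for T3 in TRα (-/-) to 0.212 with equal peaks. Leaving out 1 library gave −0.907 to −0.636, −0.435 to −0.0970 and −1.41 to −0.932 for these.

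For wild type minus TRα (-/-) with T3 the sign changed to −0.210 (gap of 10000 bp), −0.0215 (at least 5 regions) and −0.146 (peaks closer than 500 bp merged), and without T3 to 0.396 with 50% covered. Within treatment the genotypes differed by −1.04, −0.220 and −0.394 under the first 3 of these, by 0.223 with 50% covered and by 0.00217 with equal peaks. Leaving out 1 library gave −0.185 to 0.343, −0.925 to −0.532 and −0.480 to −0.215. The genotype by T3 difference was 1.67, 0.397, 0.690, 0.688, 0.496, 0.0141 and 0.493 with the gap of 10000 bp, at least 5 regions, q below 0.001, fold enrichment of at least 4, 500 bp merging, equal peaks and without replicate 2, −0.346 with 50% covered, and 0.587 to 1.14 with 1 library left out.

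Clusters whose regions all changed one way, in the order T3 in wild type, T3 in TRα (-/-), genotypes without and with T3 (main counts 0, 0, 3 and 0), numbered 4, 2, 19 and 1 with a gap of 10000 bp, and 10, 10, 47 and 6 with at least 3 regions. For T3 in wild type there was 1 with a gap of 3000 bp, with fold enrichment of at least 4 and without replicate 2, there were 2 at q below 0.01 and below 0.001, and 4 with 50% covered. For the genotypes without T3 there was 1 with the 3000 bp gap or equal peaks, 0 with at least 5 regions, 7 at q below 0.01, 5 at q below 0.001 or fold enrichment of at least 4, 8 with 50% covered and 12 with all 3 libraries, and with T3 there was 1 without replicate 2. Leaving out 1 library gave 0 to 12, 0 to 9, 0 to 60 and 0 to 2. Requiring both remaining libraries makes calls in that condition fewer by construction.

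The detection of clustered regions in libraries not used to choose them stayed higher. It was 8.95 to 10.7 points in TRα (-/-) and 14.1 to 14.7 points in wild-type libraries with 1 library left out, where p = 0.0625 is the smallest that 5 allow in the exact test, and 4.61 points in wild type with fold enrichment of at least 4. The share of variance between clusters, whose alternatives were added after the data were seen, was 0.213, 0.394 and 0.182 without the chromosome 2 run for T3 in TRα (-/-) and the genotypes without and with T3, and 0.530 for the last over regions with a peak in all 12 libraries. Leaving out 1 library gave 0.137 to 0.292, 0.5997 to 0.655, 0.636 to 0.799 and 0.290 to 0.401 in the order above. For T3 in wild type it was lowest without replicate 1 with T3.

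With the replicate number as a block (replicate block) the 4 differences in share are by arithmetic the same, −0.387, −1.21, −0.757 and 0.0698. Same-numbered libraries deviated together only slightly over all kept regions (r of −0.0039 to 0.0535 over 12 pairs, mean 0.0187). Libraries of different numbers gave −0.0725 to 0.0586 over 24 pairs (mean −0.0094). Each library was measured from the mean of its condition, so these means are tied to each other. With values this small the numbers were not taken as pairs. Depth limits the lists: a weak region can miss the 2 of 3 libraries in a shallow condition, pileups of few fragments are coarse, and technical replicates carry no spread between animals.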
